A study of Homo sapiens with 8 samples.

Results

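The genes described are 7 with known roles in neurons: CACNA1A, SNAP25, STMN2, BDNF, GAP43, TUBB3 and VGF. They were examined as possible targets of the demethylase LSD1 acting with the repressor REST, in a map of dimethylation of lysine 4 of histone H3 (H3K4me2) in a tumour cell line. Peaks were selected by position, as those that overlapped a gene's hg19 interval widened by 10 kb on each side, and the genes were chosen with earlier results of these lists known. The presence of peaks is therefore a description and not a finding. Peaks of the 4 library lists that overlapped were merged into regions, and 27 of 58952 regions lay in the 7 widened intervals. Binding of LSD1 or REST was not measured, so the genes are called neuronal genes here and not targets.

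The cells were RD, an established human rhabdomyosarcoma line, a muscle-lineage tumour of childhood. The siCtrl group received a control small interfering RNA (siRNA) and the siLSD1 group a single siRNA construct against LSD1, each by reverse transfection with a change of medium after 8 hours and harvest after 96 hours. Each group had 2 ChIP libraries, which the submitters call biological replicates, and 2 input libraries that were not analysed here. All groups are the same cell line, so the results are of 1 line and 1 siRNA construct. Without an hg19 gene annotation, neither the muscle identity of the cells nor the locus of LSD1 was checked.

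REST, the RE1-silencing transcription factor, binds the RE1 element near many neuronal genes in non-neuronal cells and keeps them repressed. It recruits the CoREST complex, which holds the histone deacetylases HDAC1 and HDAC2 and LSD1. LSD1 (gene KDM1A) erases H3K4me2 and the monomethyl form of the same residue, and H3K4me2 marks promoters and enhancers. The genes themselves serve in transmitter release (CACNA1A, SNAP25), in growing neurites (STMN2, GAP43), in the neuronal cytoskeleton (TUBB3) and as secreted signals (BDNF, VGF).

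The library lists ranged from 33878 to 50587 peaks. They give no read depth, so the number of reads behind a list is unknown, and the list of siCtrl replicate 1 was the shortest, with the other siCtrl list at 44831 and the siLSD1 lists at 50587 and 49611. The part of list length in the differences below was tested only through the lists of equal length. Over chromosomes 1 to 22 and X the peaks covered 1.23 times as much sequence after siLSD1 as after siCtrl. A peak had to reach a score of about 50 to be listed, so a place without a peak was below that threshold and not shown to lack the mark. In such bulk libraries, more cells with the mark and more of the mark per cell cannot be told apart.

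The start of a gene here is the edge of its interval from which it is transcribed, known to about 1 kb. A peak within 2 kb of it was found for 6 of the 7 genes in each of the 4 libraries, and for GAP43 in none. RefSeq promoter windows (250 bases before to 50 after a start, build GRCh38.p14) were matched for 5 of the 7 genes, CACNA1A, BDNF, GAP43, TUBB3 and VGF. They are shown because they set the GAP43 start, where no peak was found, beside starts that carried the mark. Capitals mark CpG dinucleotides, and each sequence is written 5′ to 3′ on the gene's strand. The positions are of GRCh38.p14 and cannot be laid on the hg19 peaks. For BDNF the most upstream of 5 windows is shown, and for TUBB3 the downstream of 2.
CACNA1A, chr19:13506430-13506729, minus strand: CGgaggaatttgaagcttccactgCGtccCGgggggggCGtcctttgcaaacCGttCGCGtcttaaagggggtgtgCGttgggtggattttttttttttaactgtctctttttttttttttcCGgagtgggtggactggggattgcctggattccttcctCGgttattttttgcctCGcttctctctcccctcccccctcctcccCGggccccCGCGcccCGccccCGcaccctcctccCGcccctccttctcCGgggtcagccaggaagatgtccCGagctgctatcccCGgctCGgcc
BDNF, chr11:27721981-27722280, minus strand: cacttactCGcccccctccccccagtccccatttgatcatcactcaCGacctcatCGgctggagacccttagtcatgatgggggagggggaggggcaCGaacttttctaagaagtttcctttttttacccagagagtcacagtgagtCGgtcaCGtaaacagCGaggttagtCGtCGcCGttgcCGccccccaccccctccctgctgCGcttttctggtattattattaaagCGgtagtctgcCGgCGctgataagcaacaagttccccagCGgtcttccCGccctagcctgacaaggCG
GAP43, chr3:115623260-115623559, plus strand: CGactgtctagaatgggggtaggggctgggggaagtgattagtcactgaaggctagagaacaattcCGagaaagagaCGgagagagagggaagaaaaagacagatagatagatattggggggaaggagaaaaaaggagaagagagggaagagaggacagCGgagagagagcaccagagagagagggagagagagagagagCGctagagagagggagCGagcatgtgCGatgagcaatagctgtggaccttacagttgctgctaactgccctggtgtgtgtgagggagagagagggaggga
TUBB3, chr16:89923092-89923391, plus strand: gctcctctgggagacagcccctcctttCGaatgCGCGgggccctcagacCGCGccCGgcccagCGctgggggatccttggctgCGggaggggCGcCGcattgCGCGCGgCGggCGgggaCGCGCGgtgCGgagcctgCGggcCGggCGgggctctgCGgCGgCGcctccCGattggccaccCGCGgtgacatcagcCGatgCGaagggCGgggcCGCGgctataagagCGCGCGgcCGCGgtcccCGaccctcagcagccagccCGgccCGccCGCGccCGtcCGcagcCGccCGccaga
VGF, chr7:101165520-101165819, minus strand: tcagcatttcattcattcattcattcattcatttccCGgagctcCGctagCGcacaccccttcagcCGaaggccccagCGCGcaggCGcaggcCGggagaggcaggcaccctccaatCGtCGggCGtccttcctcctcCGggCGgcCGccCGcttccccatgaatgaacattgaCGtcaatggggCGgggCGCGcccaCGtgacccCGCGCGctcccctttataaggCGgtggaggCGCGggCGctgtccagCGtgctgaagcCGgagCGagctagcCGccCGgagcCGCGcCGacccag

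The GAP43 window had 7 CpGs, and 36.9% of all 34943 RefSeq promoter windows had fewer. The windows shown for BDNF and CACNA1A had 18 and 21 CpGs, against a median of 14 over all windows. The VGF window had 35 CpGs and a GC content of 67.7%. The TUBB3 window had 47 CpGs and a GC content of 79%, and 97.6% of all windows had fewer CpGs. The other TUBB3 window had 9 CpGs, and the other BDNF windows had from 6 to 17. Among the printed windows, that of GAP43 had the fewest CpGs, but a BDNF window that is not printed had fewer, with 6. The order therefore depends on which windows are printed. GAP43 is a single gene, so this is no more than a description.

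Parts of the RE1 element were searched on both strands of the 10 windows of the 5 matched genes. Of these windows 5 were of BDNF and 2 of TUBB3. A gene is named below if any of its windows held a match, while the shares are of single windows. The left part, TCAGCACC, was in none of the members' windows and in 1.68% of all windows. The right part, GGACAG, was in windows of BDNF, GAP43, TUBB3 and VGF and in 20.6% of all windows. Read along the printed sequences, it began 6 bases before the start in VGF and 97 bases before the start in GAP43. In VGF it was on the strand opposite the printed one, and in GAP43 on the printed strand. In BDNF and TUBB3 it lay in windows that are not printed. Both parts together were in 0.509% of all windows and in none of the members'. The cAMP response element TGACGTCA, for which VGF is known and which was searched after the sequence had been seen, began 79 bases before the VGF start and was in 1.84% of all windows. The motifs share no position in these windows. These matches are letters in a window and say nothing of binding.

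CACNA1A encodes the pore-forming subunit of the P/Q-type calcium channel, which admits the calcium that triggers transmitter release. It is the longest of the 7 genes, in 19p13.2 (hg19 chr19:13317000-13618000), transcribed from the higher coordinate. Peaks covered 4.40 and 10.5 kb of its widened interval in siCtrl replicates 1 and 2, and 18.4 and 23.8 kb in siLSD1 replicates 1 and 2. Both siLSD1 libraries lay above both siCtrl libraries. The siCtrl mean was 7.47 ± 4.34 kb and the siLSD1 mean 21.1 ± 3.77 kb (SD, n = 2 each), a ratio of 2.82 against 1.23 for the genome. The ratio was 2.002 without siCtrl replicate 1 (genome 1.07) and 4.79 without siCtrl replicate 2 (genome 1.44). With 2 libraries against 2 an exact permutation test cannot give a p below 0.33, so none was run on single genes. The peak counts were 4 and 8 after siCtrl and 10 and 13 after siLSD1.

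**Figure D1:**
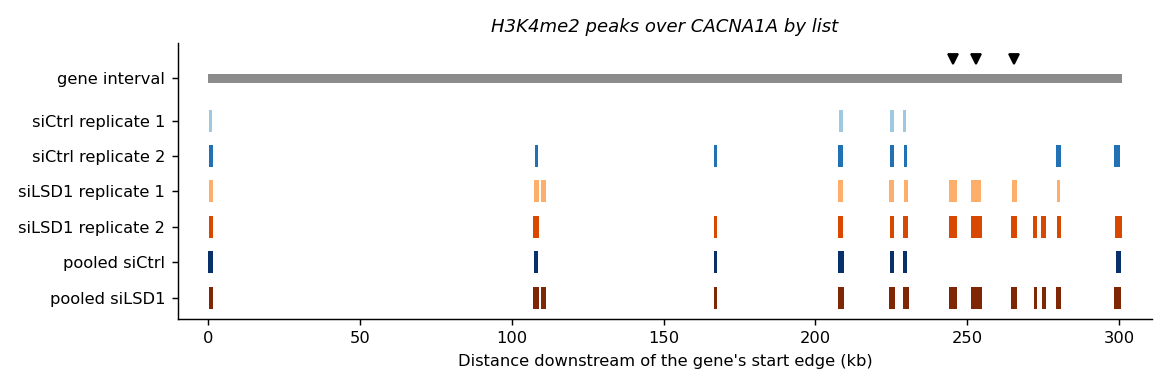
H3K4me2 peaks over CACNA1A in the 4 library lists and the 2 pooled lists, drawn to scale against the distance in kb downstream of the gene's start edge. The grey bar is the gene interval, and black triangles mark the 3 regions found in both siLSD1 libraries and neither siCtrl library, which lie between 244 and 266 kb, while the peak at the start is in all 6 lists.

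The peak at the CACNA1A start did not separate the groups. It lay 0.152 to 1.59 kb downstream of the start edge and was 0.978 and 1.44 kb wide in siCtrl replicates 1 and 2, and 1.14 and 1.31 kb wide in siLSD1 replicates 1 and 2. Its score lay at the 52.3rd and 61.0th percentile of the siCtrl lists and at the 52.5th and 63.6th of the siLSD1 lists. The score is the authors' own value and was ranked only within its list. Next along the gene, a region 107 to 109 kb downstream had no peak in siCtrl replicate 1, 0.775 kb in siCtrl replicate 2, and 1.72 and 1.83 kb in the siLSD1 libraries.

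Most of the group difference lay in the distal part of the gene. The 10 regions 200 kb or more downstream of the start, a limit chosen after the values were seen, held 11.5 kb (84.2%) of it, and the 4 nearer the start held 2.16 kb. Of 14 regions in CACNA1A, 3 had a peak in both siLSD1 libraries and neither siCtrl library, which is called gained here. They sat side by side within 22285 bp, in the body of the gene. The region at chr19:13371263-13373905, 244 to 247 kb downstream of the start, had 2.63 and 2.63 kb under peaks in siLSD1 replicates 1 and 2. The region at chr19:13363257-13366870, 251 to 255 kb downstream, had 3.51 and 3.61 kb. The region at chr19:13351621-13353516, 264 to 266 kb downstream, had 1.75 and 1.90 kb. None of the 3 had a peak in either siCtrl library or in the pooled siCtrl list, and each had 1 peak in the pooled siLSD1 list.

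Among the 4107 gained regions of the genome the middle of the 3 ranked high. It was wider than 99.2% of them, and its scores of 503.71 and 368.24 were above those of 99.9% and 99.6% of gained regions in siLSD1 replicates 1 and 2. The region nearer the start was wider than 95.5%, with scores above 59.05% and 97.7%. The region nearer the gene's end was wider than 80.7%, with scores above 91.8% and 84.3%. The replicates thus ranked the upstream region unlike each other, at a score of 98.22 in siLSD1 replicate 1 and 270.12 in siLSD1 replicate 2. Gained regions were narrow as a class, with a median width of 1424 bp against 2789 bp for common regions. Among all peaks of siLSD1 replicates 1 and 2, the middle region was at the 82.0th and 66.0th score percentile. The upstream region was at the 28.2nd and 57.8th, and the region nearer the gene's end at the 49.8th and 42.5th. CACNA1A held 9.35 gained regions per Mb of its widened interval and chromosome 19 held 3.55 per Mb.

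Counts of this kind follow from how the gene was chosen, because results of these lists were known then. Over the 7 intervals 3 of 27 regions were gained (11.1%) against 6.97% of all regions, and 0 were lost against 1.04%. All 3 gained regions were in CACNA1A, and 0 of the 13 regions of the other 6 genes were gained. With equal numbers of peaks in each list 3 of 20 regions were gained, against 3.29% of all regions, but only 2 of them were the same. The upstream region fell out, since its score in siLSD1 replicate 1 was below the 110.92 at which that shortened list ended. The region 107 to 109 kb downstream came in. With these lists 0 of the 20 regions were lost, against 3.42% of all regions, so that gain and loss were about equal over the genome. Leaving out a library lets the other one speak for its group. The count was then 3 of 27 (11.1%, genome 7.90%) without siCtrl replicate 1 and 5 of 26 (19.2%, genome 19.5%) without siCtrl replicate 2, where the members' share was at the background. It was 6 of 25 (24%) without siLSD1 replicate 1 (genome 17.9%) and also without siLSD1 replicate 2 (genome 16.8%). The only lost region under these settings was 1 of 27 (3.7%), in BDNF, without siCtrl replicate 1, when 7.05% of all regions were lost.

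A further 3 regions upstream of the gained group were present in all libraries and broader after siLSD1. At 229 to 231 kb downstream of the start, the siCtrl peaks covered 0.948 and 1.03 kb and the siLSD1 peaks 1.48 and 1.72 kb. At 224 to 226 kb the siCtrl peaks covered 1.14 and 1.38 kb and the siLSD1 peaks 1.90 and 1.54 kb. There the scores moved up within their lists, from the 9.35th and 12.4th percentile after siCtrl to the 62.5th and 67.2nd after siLSD1. At 207 to 209 kb the covered lengths were 1.33 and 1.59 kb after siCtrl and 1.75 and 1.70 kb after siLSD1. In each of these 3 regions both siLSD1 libraries lay above both siCtrl libraries, by 0.266 to 0.607 kb in the means. Further toward the gene's end, regions at 272 and 274 kb had a peak in siLSD1 replicate 2 only, and another at 298 kb, at the end of the gene, had peaks in both replicates 2 and in neither replicate 1. The region at 279 kb had 1.44 kb in siCtrl replicate 2, 1.04 and 1.255 kb in the siLSD1 replicates, and no peak in siCtrl replicate 1. Of the remaining 2 regions, that at 110 kb was in siLSD1 replicate 1 only, and that at 167 kb was in both replicates 2, at 0.961 kb in siCtrl and 0.953 kb in siLSD1.

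SNAP25, a membrane-bound SNARE protein of the synaptic vesicle fusion machinery, lies in 20p12.2 (chr20:10199000-10289000). Its only region spanned the start, from -1.43 to 1.84 kb relative to it. Peaks there covered 2.85 and 3.20 kb in siCtrl replicates 1 and 2, and 3.01 and 2.95 kb in siLSD1 replicates 1 and 2. The groups overlapped, and the means were 3.03 ± 0.245 kb and 2.98 ± 0.0417 kb (SD, n = 2). The difference of -0.0515 kb was 0.122 kb without siCtrl replicate 2 and -0.621 kb with lists of equal length. The score was at the 84.3rd and 94.7th percentile after siCtrl and at the 87.7th and 94.3rd after siLSD1. In siLSD1 replicate 1 the region was called as 2 peaks. The rest of the widened interval, most of its 110 kb, had no peak in any library.

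STMN2 encodes stathmin-2, a tubulin-binding protein of growth cones, in 8q21.13 (chr8:80523000-80579000). It also had 1 region, 0.607 to 3.50 kb downstream of its start edge. Its breadth was 2.32 and 2.47 kb after siCtrl, and 2.63 and 2.90 kb after siLSD1. Both siLSD1 libraries were above both siCtrl libraries, with a difference of means of 0.366 kb, or 0.234 kb without siLSD1 replicate 2. Its scores were high in every library list, between the 92.3rd and the 96.8th percentile. The pooled siLSD1 list had a further peak near the end of the gene that no library list held.

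BDNF encodes brain-derived neurotrophic factor, a secreted growth factor with several alternative promoters, in 11p14.1 (chr11:27676000-27744000), transcribed from the higher coordinate. It had 4 regions, and 3 of them were marked in all libraries. The region over the start covered 1.71 and 2.34 kb in siCtrl replicates 1 and 2, and 2.23 and 2.50 kb in siLSD1 replicates 1 and 2, so that the groups overlapped. A region 1.35 to 5.60 kb downstream covered 2.72 and 3.54 kb after siCtrl, and 3.68 and 4.25 kb after siLSD1, with both siLSD1 libraries above. The broadest region of BDNF lay 18.9 to 27.3 kb downstream, and 98.3% of the genome's common regions were no wider.

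In that broad BDNF region the lists differed in how peaks were divided. It had 5.55 and 7.79 kb under peaks in siCtrl replicates 1 and 2, and 6.98 and 7.92 kb in siLSD1 replicates 1 and 2. Each siCtrl library and both pooled lists had 1 peak there, and each siLSD1 library had 2. A region of 1528 bp, 15.5 to 17.0 kb downstream, was in siCtrl replicate 2 alone among the libraries and in both pooled lists. Over the widened interval the totals were 9.98 and 15.2 kb after siCtrl, and 12.9 and 14.7 kb after siLSD1. The groups overlapped. The difference of means of 1.19 kb was -1.42 kb without siCtrl replicate 1 and 3.80 kb without siCtrl replicate 2, so its direction rested on the shortest list.

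GAP43, a growth cone protein of regenerating axons, lies in 3q13.31 (chr3:115342000-115441000). It was the only one of the 7 without a peak at its start in any list. Its region marked in all libraries was 33.9 to 37.2 kb downstream, in the body of the interval. Its breadth was 1.81 and 2.43 kb after siCtrl, and 2.90 and 2.35 kb after siLSD1, and the groups overlapped. The scores at this region spread from the 32.0th percentile in siCtrl replicate 1 to the 78.7th in siCtrl replicate 2, wider than the 69.2nd and 66.3rd of the siLSD1 libraries.

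In GAP43 each siLSD1 library had 1 more peak, but not in the same place. That of siLSD1 replicate 1 was 1744 bp wide at 75.3 kb downstream, and that of siLSD1 replicate 2 was 691 bp wide at 87.5 kb. No region of GAP43 was gained by the rule that asks for both libraries. Covered length in the widened interval was 1.81 and 2.43 kb after siCtrl, and 4.64 and 3.04 kb after siLSD1. The 691-bp peak scored 53.04, at the 2.48th percentile of the siLSD1 replicate 2 list and near the threshold. Without that peak siLSD1 replicate 2 would hold only the 2.35 kb of the common region, below the 2.43 kb of siCtrl replicate 2. The difference of means of 1.72 kb was 0.920 kb without siLSD1 replicate 1. The pooled siLSD1 list had 4 peaks in GAP43, 3 of them absent from the pooled siCtrl list and 1 in no library list.

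TUBB3 encodes class III beta-tubulin, a cytoskeletal protein widely used as a neuronal marker, in 16q24.3 (chr16:89988000-90003000). A region from -1.97 to 5.49 kb relative to its start was 7466 bp wide, and 97.2% of the genome's common regions were no wider. Peaks there covered 6.28 and 6.89 kb in siCtrl replicates 1 and 2, and 6.88 and 7.31 kb in siLSD1 replicates 1 and 2. Its scores were at the 93.1st to the 98.9th percentile of the library lists. A smaller region upstream, from -4.59 to -2.27 kb, came in only through the widening. MC1R adjoins TUBB3 on that side in the RefSeq gene table, so that peaks in that flank cannot be assigned to TUBB3 alone. The smaller region had 1.77 and 2.04 kb after siCtrl, and 2.01 and 2.31 kb after siLSD1. In neither region were the groups separate, and the difference over the widened interval was 0.757 kb, or 0.318 kb without siCtrl replicate 1 and 0.393 kb without siLSD1 replicate 2. Within the unwidened interval the covered length was 5.31 and 5.50 kb after siCtrl, and 5.35 and 5.34 kb after siLSD1.

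VGF encodes a secreted neuropeptide precursor that is induced by nerve growth factor, in 7q22.1 (chr7:100805000-100809000), transcribed from the higher coordinate. The gene is short and lies between AP1S1 and NAT16 in the RefSeq gene table, so that peaks in the widened interval cannot be assigned to VGF alone. Its main region was 16333 bp wide, from -9.54 to 6.80 kb relative to the start, and 99.9% of the genome's common regions were no wider. Peaks there covered 11.3 and 12.5 kb in siCtrl replicates 1 and 2, and 15.6 and 16.2 kb in siLSD1 replicates 1 and 2. Both siLSD1 libraries lay above both siCtrl libraries. The means were 11.9 ± 0.862 kb and 15.9 ± 0.411 kb (SD, n = 2).

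The added breadth at VGF lay outside the gene. Within its interval peaks covered 98.6% and 97.4% after siCtrl, and 100% in both siLSD1 libraries. In the 10-kb flanks together they covered 9.99 and 12.0 kb after siCtrl, and 15.0 and 15.95 kb after siLSD1. Toward the end of the gene and beyond it, the peaks reached 3.94 and 3.90 kb downstream of the start in siCtrl replicates 1 and 2, and 6.80 and 6.68 kb in siLSD1 replicates 1 and 2. On the upstream side the outer edges overlapped between the groups, with peaks reaching -9.21 and -9.08 kb after siCtrl, and -9.17 and -9.54 kb after siLSD1. Covered length on that side was separate. Over chr7:100810001-100820000 it was 6.35 and 7.62 kb after siCtrl, and 8.17 and 8.54 kb after siLSD1. The main region was called as 3 and 2 peaks in siCtrl replicates 1 and 2, and as 2 and 1 in siLSD1 replicates 1 and 2. A region 8.89 to 12.7 kb downstream of the start, beyond the end of the gene, covered 2.64 and 3.33 kb after siCtrl, and 3.35 and 3.74 kb after siLSD1.

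**Figure D2:**
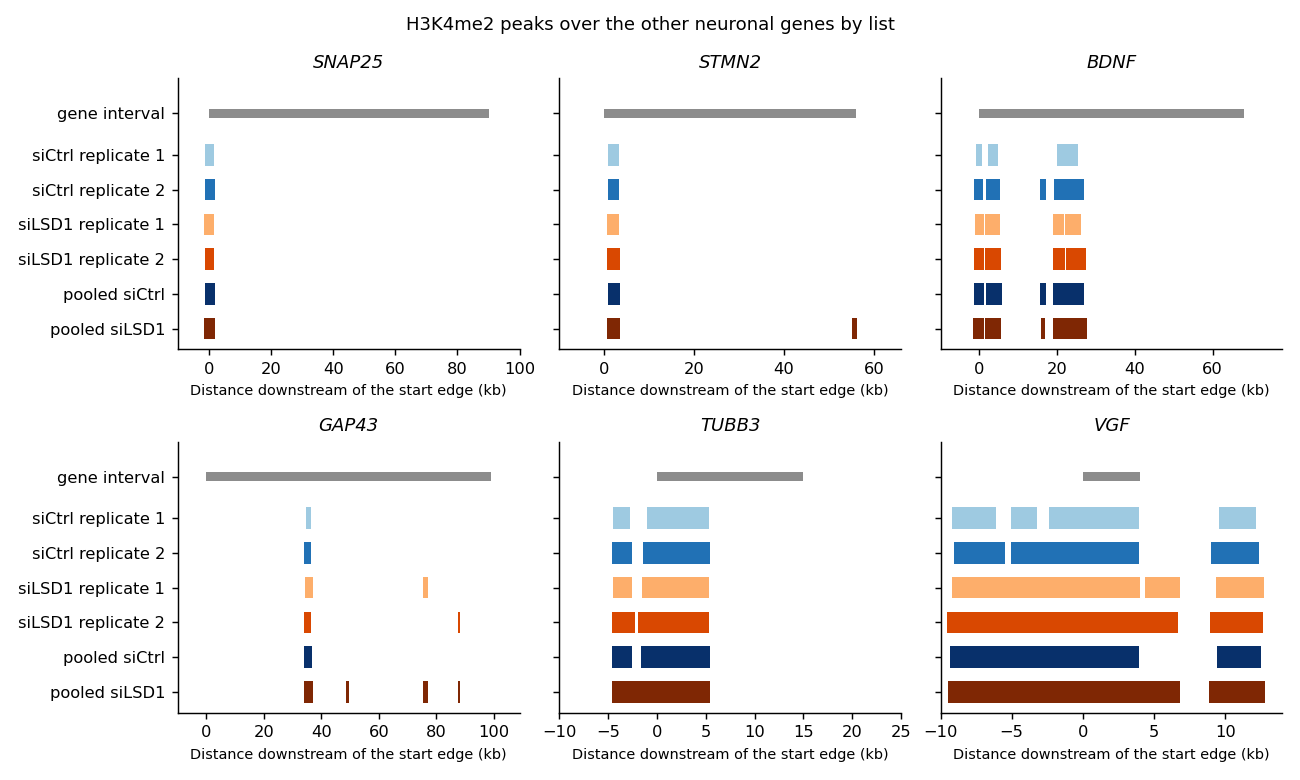
H3K4me2 peaks over the other 6 genes in the same 6 lists, each panel against the distance in kb downstream of that gene's start edge, with its own scale and 10 kb on either side. Peaks lie at the start of every gene but GAP43, and at VGF the peaks around the start end at 3.90 and 3.94 kb downstream in the siCtrl libraries and at 6.68 and 6.80 kb in the siLSD1 libraries.

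Set side by side, the 7 genes fell into those with separate groups and those without. Both siLSD1 values of covered length exceeded both siCtrl values at CACNA1A, STMN2, GAP43 and VGF. It overlapped between the groups at SNAP25, BDNF and TUBB3, and was lower in both siLSD1 libraries at none. Genome-wide covered length was also higher in both siLSD1 libraries, at 96.9 and 104 Mb against 70.1 and 94.1 Mb after siCtrl. The share of comparable intervals that separate in this way was not computed, so the count is a description. At GAP43 the separation rested on a peak of siLSD1 replicate 2 near the score threshold. The differences of means ran from -0.0515 kb at SNAP25 to 13.6 kb at CACNA1A. Over all 7 intervals the libraries had 43.4 and 58.6 kb after siCtrl, and 69.5 and 76.9 kb after siLSD1, a ratio of 1.44. The difference of 22.2 kb was 14.6 kb without siCtrl replicate 1. CACNA1A held 61.4% of it, and without CACNA1A the ratio was 1.20, near the 1.23 of the genome.

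**Figure D3:**
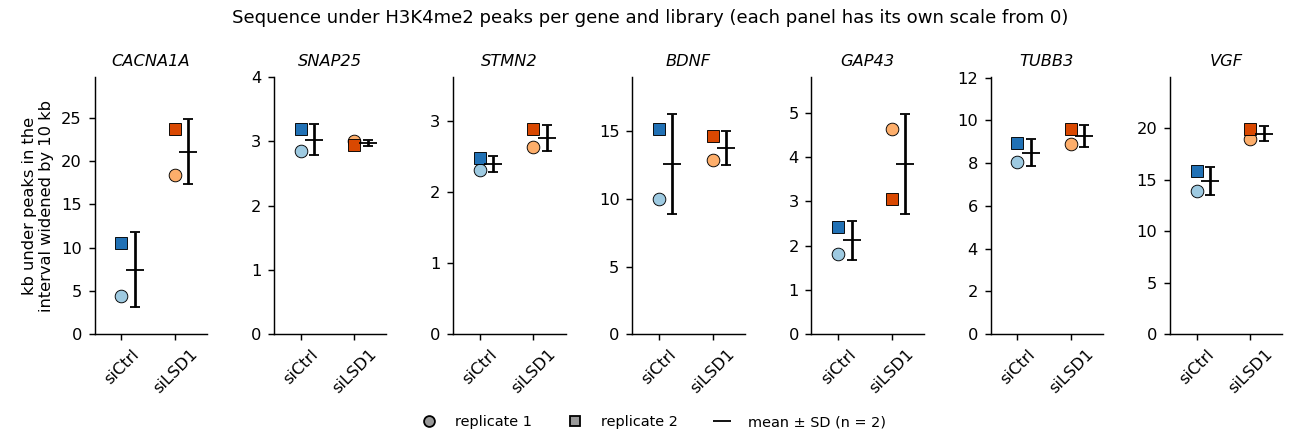
Sequence under H3K4me2 peaks, in kb, in each gene's interval widened by 10 kb. Circles and squares are replicates 1 and 2, bars are the mean ± SD (n = 2), and each panel has its own axis from 0. The siLSD1 points lie clear of the siCtrl points at CACNA1A, STMN2, GAP43 and VGF, at GAP43 only through a peak of siLSD1 replicate 2 near the score threshold.

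Of the 27 regions, 14 were common to all 4 libraries (51.9%), against 45.2% of all regions. Breadth was greater in both siLSD1 replicates than in either siCtrl replicate in 7 of the 14, against 30.3% of common regions in the genome, and narrower in 0, against 9.62%. The 7 were 3 in CACNA1A, 2 in VGF and 1 each in STMN2 and BDNF. Without CACNA1A the count was 4 of 10. Of the 7 common regions at a start, 3 were broader, those of STMN2, VGF and the downstream one of BDNF. The count was 14 of 14 without siCtrl replicate 2, when 63.1% of the genome's common regions were broader, and 11 of 14 without siLSD1 replicate 1, when 52.9% were. Without siCtrl replicate 1 it was 8 of 16 (genome 37.8%), and 3 of the 16 were then narrower. Without siLSD1 replicate 2 it was 8 of 14 (genome 39%). It was 6 of 13 with equal numbers of peaks, against 30% of the genome's.

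**Figure D4:**
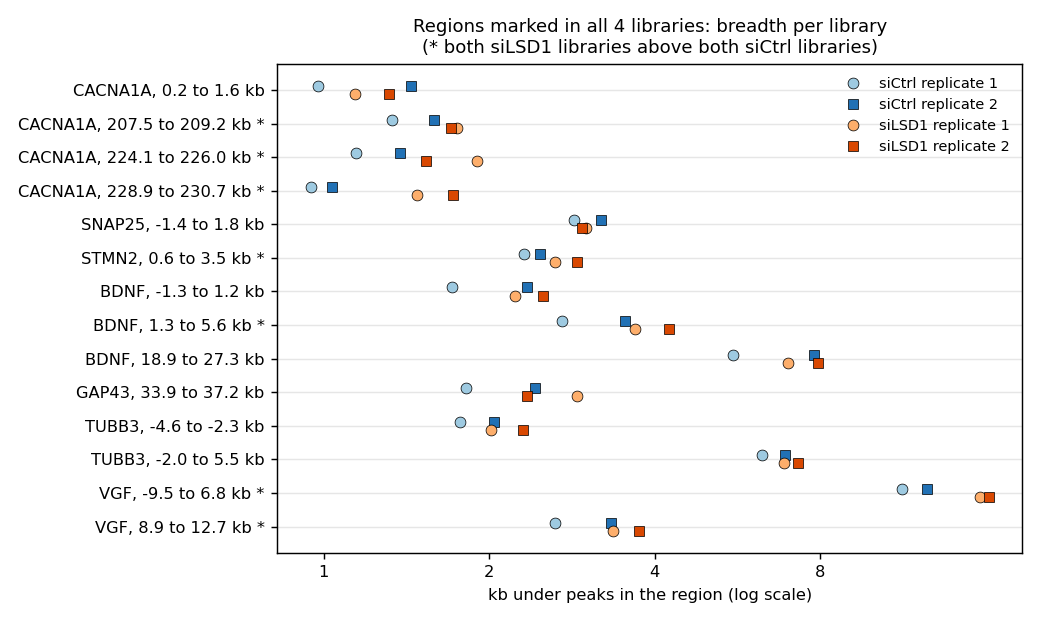
Breadth in kb (log axis) of the 14 regions of the neuronal genes that had a peak in all 4 libraries, named by gene and distance from the start, with 1 point per library. Stars mark the 7 regions where both siLSD1 points lie to the right of both siCtrl points.

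Windows of 10 kb over the whole genome were compared with limma. Of 43372 windows tested, 0% passed an adjusted p of 0.05, and the smallest adjusted p was 0.129. Of these, 27 touched the widened intervals. At an unadjusted p under 0.05, 7 of the 27 were higher after siLSD1 and 0 lower, against 12.4% and 1.94% of all windows. The 7 were 5 in CACNA1A, 1 at VGF and 1 at TUBB3, whose peaks lay beyond the widened interval. The window with the middle gained region of CACNA1A had 0 kb after siCtrl in either replicate, and 3.51 and 3.61 kb after siLSD1. The difference was 3.56 ± 0.147 kb (limma SE), with an adjusted p of 0.129 in limma. Other windows shared that adjusted p, among them those of the other gained regions of CACNA1A and those counted above at TUBB3 and VGF. It is a tie of the adjustment and does not rank these windows. The members' windows that were higher numbered 1 of 22 without siLSD1 replicate 1, against 5.32% of all windows, and 2 of 20 without siLSD1 replicate 2, against 4.3%. Without siCtrl replicate 2 they were 9 of 25, against 26.6%. Without siCtrl replicate 1 they were 5 of 27, against 8.01%, and 1 was lower, against 1.95%.

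The pooled lists, which the submitters made from both replicates, held 18 peaks in the 7 intervals for siCtrl and 29 for siLSD1. Of the 29, 11 were without a counterpart in the pooled siCtrl list (37.9%), against 27% of all peaks of the pooled siLSD1 list. Of the 18, 0 were without a counterpart in the pooled siLSD1 list, against 8.86%. The 11 were 7 in CACNA1A, 3 in GAP43 and 1 in STMN2. At SNAP25, BDNF, TUBB3 and VGF each pooled peak had a counterpart in the other pooled list.

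The widening of 10 kb added 1 region at TUBB3 and 1 at VGF, and none at the other 5 genes. The nearest regions outside it lay 10.7 kb from the TUBB3 interval and 11.7 kb from that of VGF on the side of higher coordinates. For the other 5 genes the nearest region on that side was 20.1 to 81.4 kb away. Unwidened, the difference of means was 13.6 kb at CACNA1A, 0.0790 kb at VGF and -0.0570 kb at TUBB3.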

How the data were processed

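H3K4me2 was mapped by ChIP-seq in 4 libraries. Reads were aligned with Bowtie to hg19, per the submitters' processing notes, and the peak names carry the name of MACS. Not given in the sources used here were the MACS version and settings and any use of the inputs. Each deposited list of peaks comes from 1 library or from both replicates of a group pooled. The deposited score of each peak is the authors' own value, from 50 up to 3233.06, and was used only to rank and filter peaks within a list.

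Peaks on chromosomes 1 to 22 and X were kept. Peaks of different libraries were joined into a region when they shared 1 bp or more, and windows of 10 kb with at least 0.5 kb in at least 2 libraries were tested with limma 3.58.1 (trend, robust; statmod 1.5.0, R 4.3.3) with Benjamini-Hochberg adjustment. Region building and the fit were tested on simulated data. Other steps used Python 3.11.15, pandas 2.3.3 and matplotlib 3.10.9, with cytobands from circlize 0.4.16.

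Transcription direction came from RefSeq where listed and otherwise from general knowledge. All 7 genes and every region in them are named or counted. The genes and lists were chosen with earlier results of these data known. Other REST-pathway genes were not analysed here, since no hg19 gene annotation was used. Alternatives were equal numbers of peaks (33878), the upper 50% by score, other widening, overlap and merging rules, a replicate block, quantile normalization, no filter, and leaving out each library. The breadth counts under alternatives were added after the data were seen.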

Additional observations from a re-analysis of the deposited data

How the results depend on the processing

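The number of gained regions in the 7 intervals was 2 of 15 with the upper 50% of each list (genome 6.33%). With equal numbers of peaks it was 3 of 20 (genome 3.29%), of which only 2 were gained with all peaks. The count was 3 of 25 without widening (genome 6.97%) and 3 of 27 with a 50% overlap rule (genome 6.90%). With merging across 1000 bp it was 3 of 24 (genome 6.82%). It was 7 of 51 regions with intervals widened by 50 kb (13.7%, genome 6.97%), against 27 regions at 10 kb, and ranged from 3 to 6 when each library was left out. The number of lost regions ranged from 0 to 1 when each library was left out (genome 2.49% to 7.05%). With equal numbers of peaks it was 0 of 20, when 3.42% of all regions were lost. It was 0 under the other settings too (genome 0.697% to 1.05%). The difference in covered length over the 7 intervals, 22.2 kb, was 38.3 kb with intervals widened by 50 kb, 16.9 kb with equal numbers of peaks, and 14.6 to 29.8 kb when each library was left out. The number of common regions broader after siLSD1 ranged from 8 to 14 when each library was left out.

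In limma the count of windows past the threshold was 9 with quantile normalization, none of them in the 7 genes, and 0 under the other settings, the replicate block among them. With the replicate block 6135 windows were higher and 889 lower at an unadjusted p under 0.05, against 5389 and 840 without it. Of the members' windows 6 of 27 were higher with the block, against 14.1% of all windows. The count was 5 of 27 with quantile normalization (genome 6.99%) and 5 of 22 with equal numbers of peaks (genome 7.55%). Without the filter on low windows it was 7 of 32 (genome 9.36%). The replicates 1 deviated together (r = 0.15 over windows), but with 2 pairs that share only a number no pairing was taken from this. Of 56 differences for single genes under alternatives, 47 were positive, but they reuse the same 4 lists and are not independent. With each library left out in turn, the genome's ratio of covered length was also 1.07 to 1.44. All 8 were positive at CACNA1A (6.88 to 17.6 kb), STMN2 (0.234 to 0.499 kb), GAP43 (0.920 to 2.52 kb) and VGF (0.0790 to 16.0 kb). At BDNF and at TUBB3 7 of 8 were positive, and at SNAP25 1 of 8. Depth is unknown, and these lists do not show marks below the peak threshold.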
